A study of Homo sapiens with 5 samples.

Results

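The replication-independent histone variants are the histone genes that cells transcribe outside S phase as well as within it, from single genes with polyadenylated mRNAs. They were chosen by symbol, 10 of the 26485 genes in the count table, and those described here are H2AFX, H2AFZ, H2AFV, H2AFY, H2AFY2, H2AFJ, H3F3A, H3F3B and H1FX. The count filter kept 9 of them among 14187 tested genes, and H3F3A did not pass it. RNA-seq of poly-A selected RNA was done in wild-type RPE1 cells, a human retinal pigment epithelial line immortalized with telomerase, after 18 h of treatment. Control cells received DMSO (2 libraries), and treated cells received doxorubicin at 0.2 μM (2 libraries) or 0.34 μM (1 library). Doxorubicin intercalates into DNA and inhibits topoisomerase II. The treatment protocol in the labels writes 200 and 340 μM, whereas the sample names give 0.2 and 0.34 μM, and the latter are used here. The comparison asks which histone variants differed in mRNA level between doxorubicin and DMSO.

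Variant histones replace the canonical histones in a fraction of nucleosomes and can be exchanged at any time of the cell cycle. H2A.X carries the serine that is phosphorylated around DNA double-strand breaks, H2A.Z marks the nucleosomes next to active promoters, and H3.3 is deposited where nucleosomes turn over. The macroH2A proteins carry a large globular domain and are associated with silent chromatin, and the linker histone H1.X binds the DNA between nucleosomes.

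The DNA upstream of the gene starts is shown for the H2A.X gene and both H2A.Z genes, whose levels were lower in all doxorubicin libraries, and for H3F3B, whose groups overlapped, a choice made after their values were seen. H1FX was also lower in all doxorubicin libraries, and its upstream DNA is not printed. The letters are those of RefSeq on GRCh38.p14, 5′ to 3′ on the strand of the gene and ending next to its start. The H2AFV line stops where the RefSeq span of the gene begins, 39 bases before the start used. Capitals mark CCAAT, the letters bound by NF-Y, and the cell cycle homology region (CHR, searched as TTTGAA or TTCGAA), an element known from promoters of G2 and M phase genes. Both were searched on both strands, so that ATTGG and TTCAAA are matches too.
H2AFX (chr11:119095466-119095715, minus strand): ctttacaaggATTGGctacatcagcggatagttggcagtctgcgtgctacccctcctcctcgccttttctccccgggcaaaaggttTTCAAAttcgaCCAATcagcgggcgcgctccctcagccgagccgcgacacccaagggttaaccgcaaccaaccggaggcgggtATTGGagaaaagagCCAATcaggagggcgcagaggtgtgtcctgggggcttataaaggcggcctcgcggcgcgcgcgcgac
H2AFZ (chr4:99950276-99950525, minus strand): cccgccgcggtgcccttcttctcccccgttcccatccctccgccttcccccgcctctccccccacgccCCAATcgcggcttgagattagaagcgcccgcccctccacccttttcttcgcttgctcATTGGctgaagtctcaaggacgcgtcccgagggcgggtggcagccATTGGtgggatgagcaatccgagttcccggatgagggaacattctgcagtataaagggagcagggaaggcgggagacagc
H2AFV (chr7:44848127-44848337, minus strand): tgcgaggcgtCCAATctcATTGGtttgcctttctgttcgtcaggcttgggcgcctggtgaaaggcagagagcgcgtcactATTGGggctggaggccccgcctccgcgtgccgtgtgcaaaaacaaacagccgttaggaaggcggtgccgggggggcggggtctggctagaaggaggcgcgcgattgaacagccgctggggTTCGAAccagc
H3F3B (chr17:75779780-75780029, minus strand): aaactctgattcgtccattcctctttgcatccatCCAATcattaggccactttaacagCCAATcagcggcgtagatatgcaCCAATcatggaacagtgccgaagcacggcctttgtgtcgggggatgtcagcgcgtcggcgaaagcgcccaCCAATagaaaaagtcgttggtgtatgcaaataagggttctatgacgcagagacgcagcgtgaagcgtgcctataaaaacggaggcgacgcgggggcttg

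H2AFX held 1 CHR, 164 bases before the start, and 4 CCAAT. H2AFV also held 1 CHR, 50 bases before the start, and 4 CCAAT, of which the one 26 bases before the start lies beyond the printed letters. H2AFZ held no CHR and 3 CCAAT, and H3F3B held no CHR and 4 CCAAT. H2AFJ held 3 CCAAT, H2AFY held 2 at one of its 2 starts, and neither motif was found upstream of H1FX or H2AFY2. Of 35116 annotated human promoters, 14.3% held a CHR in the same 250 bases, 32% held a CCAAT, 5.05% held both, and 2.93% held 3 or more CCAAT. The E2F letters TTTCCCGC, TTTCGCGC, TTTGCCGC and TTTGGCGC occurred in 2.79% of promoters and in none of those of the histone variants described here. These matches are a description of the letters in the window. H3F3A had 4 annotated starts with at most 1 CCAAT each.

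**Figure D1:**
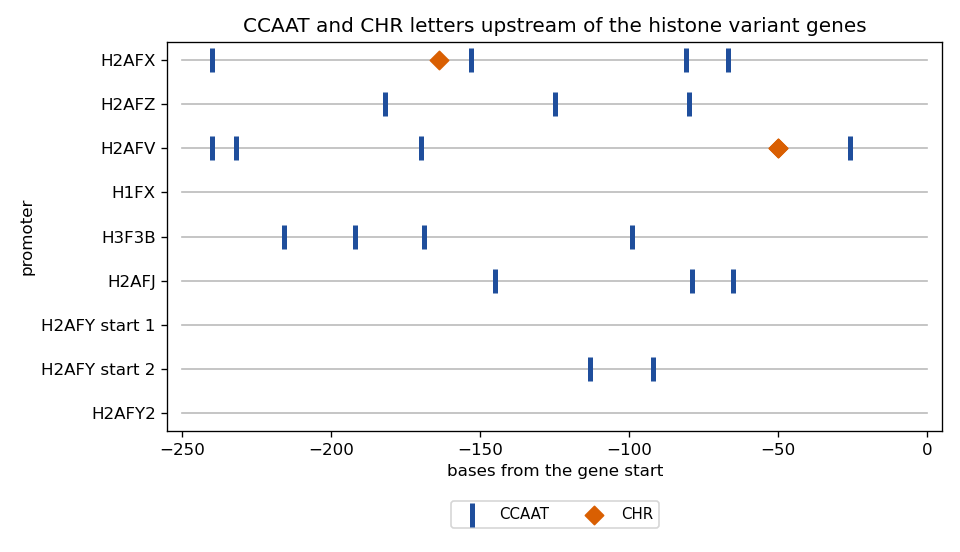
Position of CCAAT (bars) and CHR (diamonds) letters in the 250 bases upstream of the start of 8 histone variant genes, with 2 starts for H2AFY; the x axis is in bases from the start. H2AFX and H2AFV held both kinds of letters, whereas H1FX and H2AFY2 held neither.

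A second sequence sets H2AFX apart from the other 9 genes. Its canonical transcript of 1592 bases held the histone stem-loop, the hairpin at which replication-dependent histone mRNAs are cut without gaining a poly-A tail. It starts at base 553 and is shown with its 6-base stems in capitals and its 4-base loop in lower case.
H2AFX stem-loop: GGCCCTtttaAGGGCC
The stem-loop consensus was found in 1 of the 10 histone variants, in 62 of 62 matched replication-dependent histone genes and in 81 of 19894 protein-coding genes (0.407%). H2AFX is known to make both a short stem-loop mRNA and a longer polyadenylated one. Poly-A selection captures the longer form.

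The libraries held between 23773061 and 36725345 counts, and the 10 genes took between 0.0825% and 0.168% of them. Values are CPM, the counts of a gene scaled to the library size with TMM normalization. They are listed in the order DMSO replicate 1, DMSO replicate 2, 0.2 μM replicate 1, 0.2 μM replicate 2 and 0.34 μM. The labels do not say whether the libraries came from separate cultures, so that the p-values measure the spread between these libraries, which may be technical. The study's methods call them biological replicates. Of 11 retinal pigment epithelial and epithelial markers, 7 passed the count filter. With edgeR 0 of these passed the threshold, 4 had an unadjusted p under 0.05 (KRT8, PMEL, BEST1 and KRT18, all higher), and DESeq2 called KRT8 and PMEL. Their summed CPM was 686 to 863 in DMSO and 1090 to 1290 in doxorubicin, most of it from the epithelial keratins KRT8 and KRT18. MITF, OTX2 and PAX6, which mark the eye lineage, had log2 fold changes of 0.05, -0.02 and -0.46 and did not pass with either tool. The defining markers RPE65, RLBP1, TYR and LRAT had at most 25 counts in any library. Markers of other cell types summed to 95.9 to 103 CPM in DMSO and 80.3 to 115 in doxorubicin, nearly all of it CD68, and CD3E and RCVRN were at 0. PTPRC, a leukocyte marker, had 5, 7, 25, 53 and 72 counts in the order given above (adjusted p = 0.0212 from edgeR and 0.000571 from DESeq2). CDH5, an endothelial marker, had 2, 56, 4, 69 and 5 counts, higher in replicate 2 of DMSO and of 0.2 μM (adjusted p = 0.964 from edgeR for doxorubicin against DMSO). Both were named after their values were seen, and their part in the results was not tested. The summed CPM of 20 cell cycle genes was 3820 and 4450 in DMSO and 450, 561 and 367 in doxorubicin, and 19 of the 20 fell past the test, all but TYMS. In bulk RNA, fewer cells that express a gene and less RNA per cell cannot be told apart.

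H2AFX was the one histone variant that passed the test, and it was lower in doxorubicin. With edgeR's quasi-likelihood test and an adjusted p under 0.01, 1 of 9 tested histone variants was lower and 0 were higher. The background among all tested genes was 2.73% lower and 1.29% higher. At an unadjusted p under 0.05, 4 of the 9 were lower and 0 were higher, beside 15.6% of all tested genes lower and 15.2% higher. DESeq2 at the same threshold called 3 lower and 0 higher, where its background was 7.72% lower and 6.37% higher. In 4 of the 9, H2AFX, H2AFZ, H2AFV and H1FX, all 3 doxorubicin libraries lay below both DMSO libraries, a pattern that 23.4% of all tested genes showed. None had all doxorubicin libraries above DMSO, against 24.3% of all tested genes. The median log2 fold change was -0.02 over the 9 genes and 0.01 over all tested genes.

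**Figure D2:**
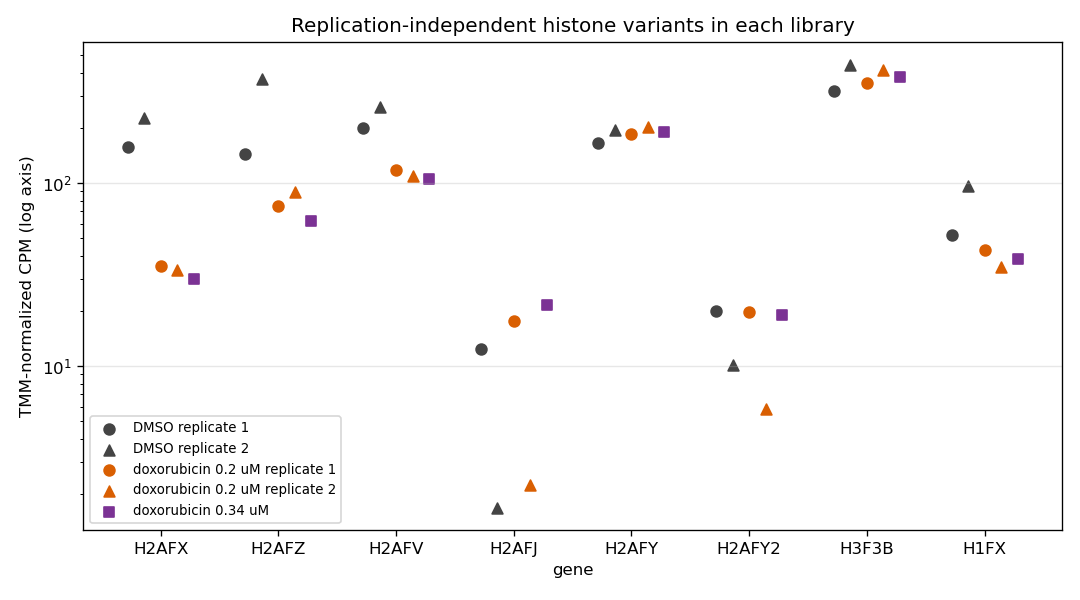
TMM-normalized CPM (log axis) of 8 tested histone variants in each library; circles are replicate 1, triangles replicate 2 and squares the single 0.34 μM library. H2AFX, H2AFZ, H2AFV and H1FX have all doxorubicin points below both DMSO points, and H2AFJ and H2AFY2 split by replicate number.

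H2AFX encodes H2A.X, whose phosphorylated form recruits repair factors to broken DNA. The gene lies on chromosome 11 (119093874 to 119095465 on GRCh38.p14) and overlaps DPAGT1, so reads from the shared stretch may be hard to assign. H2AFX had 158, 228, 35.1, 33.3 and 30.1 CPM in the 5 libraries, from 4133, 5824, 907, 800 and 1091 counts. Both DMSO libraries were far above all 3 doxorubicin libraries, which lay close together. The DMSO mean was 193 ± 49.8 CPM (SD, n = 2), and the doxorubicin mean was 32.8 ± 2.54 CPM (SD, n = 3). The log2 fold change was -2.56 (SE 0.19), a level 5.88-fold lower, with an adjusted p of 0.000972 from edgeR and 5.52e-26 from DESeq2. Against the DMSO library of the same number, the log2 difference was -2.17 for replicate 1 and -2.78 for replicate 2 of the 0.2 μM treatment. H2AFX passed the threshold in all 11 alternative analyses, which hold the fit without the 0.34 μM library under 2 names. Its log2 fold changes in them lay between -2.81 and -2.28. The summed cell cycle genes moved in the same direction in the same libraries, and their part in the change of H2AFX was not tested.

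H2AFZ and H2AFV encode H2A.Z.1 and H2A.Z.2, a pair of nearly identical proteins made from different genes. H2AFZ lies on chromosome 4 (99948088 to 99950275) and H2AFV on chromosome 7 (44826889 to 44848126), and neither overlaps another annotated gene. H2AFZ had 145, 370, 75.3, 89.9 and 61.7 CPM. DMSO replicate 2 was 2.56-fold above DMSO replicate 1, and all doxorubicin libraries lay below both. The mean was 257 ± 159 CPM in DMSO and 75.6 ± 14.1 in doxorubicin. The log2 fold change of -1.77 (SE 0.38) missed the threshold with edgeR (adjusted p = 0.0276) and passed it with DESeq2 (4.91e-05) and in edgeR without the filter on low counts (0.00576). Without DMSO replicate 1 it was -2.30 and passed (adjusted p = 0.0089), and without DMSO replicate 2 it was -0.95 and did not (0.0517). The size of the H2AFZ difference therefore rests on which DMSO library is used, while its direction does not.

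H2AFV had 200, 259, 118, 109 and 105 CPM. All doxorubicin libraries lay below both DMSO libraries, and the 3 doxorubicin values were within a narrow range. The mean was 229 ± 42.1 CPM in DMSO and 111 ± 6.83 in doxorubicin. The log2 fold change of -1.05 (SE 0.16) had an adjusted p of 0.0102 from edgeR, just above the threshold. It passed with DESeq2 (2.8e-06) and in edgeR without the filter on low counts (0.00381). Leaving out 1 library at a time gave log2 fold changes between -1.23 and -0.87 and no call.

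**Figure D3:**
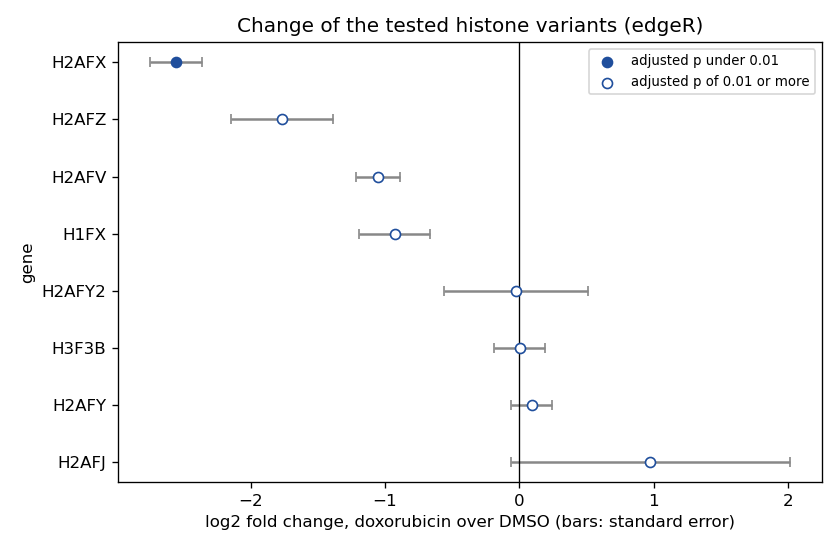
Log2 fold change of doxorubicin over DMSO for 8 tested histone variants, with bars of 1 standard error; the filled point passed an adjusted p of 0.01 in edgeR. H2AFX at -2.56 is the filled point, and H2AFZ, H2AFV and H1FX lie between -1.77 and -0.93.

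Neither macroH2A gene passed the test. H2AFY encodes macroH2A1 and lies on chromosome 5 (135334381 to 135399887), where it overlaps PITX1-AS1. It had 165, 196, 185, 202 and 189 CPM. The groups overlapped, and the log2 fold change was 0.09 (SE 0.15, adjusted p = 0.728 from edgeR). H2AFY2 encodes macroH2A2 and lies on chromosome 10 (70052846 to 70112282), where it overlaps AIFM2. It had 20.1, 10.1, 19.7, 5.82 and 19 CPM. Replicate 1 was 1.98-fold above replicate 2 in DMSO and 3.39-fold above it at 0.2 μM. Its log2 fold change was -0.02 (SE 0.54, adjusted p = 0.982 from edgeR).

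H2AFJ encodes H2A.J, an H2A variant known to accumulate in senescent cells with persistent DNA damage. The gene lies on chromosome 12 (14774405 to 14778002). It had 12.4, 1.68, 17.7, 2.25 and 21.6 CPM, from 326, 43, 458, 54 and 784 counts. Both libraries numbered 2 were low, and the 3 others were high, so that the groups overlapped. Replicate 1 was 7.38-fold above replicate 2 in DMSO and 7.89-fold above it at 0.2 μM. The mean was 7.06 ± 7.6 CPM in DMSO and 13.9 ± 10.2 in doxorubicin, a log2 fold change of 0.98 (SE 1.04, adjusted p = 0.574 from edgeR). Within a replicate number, 0.2 μM was above DMSO by 0.51 on the log2 scale in replicate 1 and by 0.41 in replicate 2. Leaving out 1 library at a time moved the log2 fold change between 0.15, without DMSO replicate 2, and 3.04, without DMSO replicate 1. H2AFJ was the one histone variant with replicate 2 at least 2-fold lower in both treatments, a pattern that 3.52% of all tested genes showed.

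**Figure D4:**
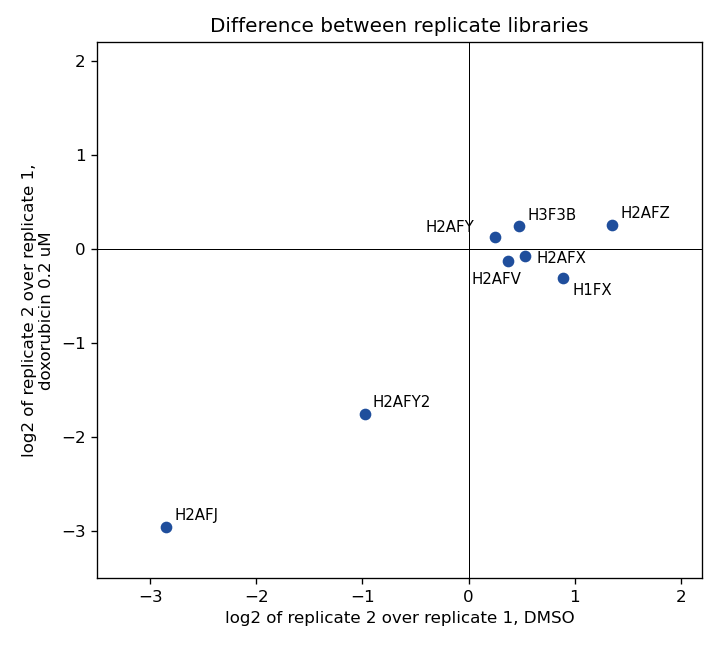
Log2 difference of replicate 2 over replicate 1 in DMSO (x axis) and at 0.2 μM doxorubicin (y axis) for 8 tested histone variants. H2AFJ and H2AFY2 lie below 0 on both axes, and H2AFZ and H1FX lie to the right, with DMSO replicate 2 above replicate 1.

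H3.3 is encoded by H3F3A and H3F3B, which make the same protein. H3F3B lies on chromosome 17 (75776434 to 75779779) and had 319, 444, 350, 414 and 381 CPM. The doxorubicin values all lay between both DMSO values. The mean was 381 ± 88.3 CPM in DMSO and 382 ± 31.9 in doxorubicin, with a log2 fold change of 0.00 (SE 0.19, adjusted p = 0.994 from edgeR). Across the alternative analyses it stayed between -0.22 and 0.24.

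H3F3A had 0, 2, 0, 2 and 0 counts and was not tested. These counts cannot be read as the expression of the gene. In the table the next entry is H3F3AP4, the name of a processed pseudogene of H3F3A, which stands between H3F3A and ACBD3. RefSeq places H3F3A on chromosome 1 (226061831 to 226072019) beside SDE2 and ACBD3, and the pseudogene on chromosome 2 (174719800 to 174720858). The H3F3AP4 entry had 5217, 5098, 4933, 4438 and 6837 counts, or 199, 200, 191, 185 and 188 CPM, with a log2 fold change of -0.09 (SE 0.13, adjusted p = 0.707 from edgeR). It was named after its values were seen, and which of the loci its reads came from was not tested.

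H1FX encodes the linker histone H1.X and lies on chromosome 3 (129314771 to 129316286). It had 52.1, 96.4, 43.3, 35 and 38.6 CPM. All doxorubicin libraries lay below both DMSO libraries, although DMSO replicate 2 was 1.85-fold above replicate 1. The mean was 74.2 ± 31.3 CPM in DMSO and 39 ± 4.16 in doxorubicin. The log2 fold change of -0.93 (SE 0.26) missed the threshold with edgeR (adjusted p = 0.0638) and with DESeq2 (0.0118), and was -0.43 without DMSO replicate 2. The gene overlaps its antisense neighbour H1FX-AS1, which had 56, 64, 31, 13 and 33 counts and a log2 fold change of -1.39 (SE 0.41, adjusted p = 0.0707 from edgeR). No source used here gives the strand setting of the counting, so reads of the overlap could not be assigned.

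Levels per kilobase of the canonical transcript leave out H3F3A, whose counts cannot be read as its expression and whose place in the order is unknown. Among the others, H2AFZ had the highest level in DMSO, with a mean of 297 ± 184 CPM per kb. It was followed by H3F3B at 141 ± 32.6 and H2AFX at 121 ± 31.3. H2AFY followed at 93.9 ± 11.6, H2AFV at 75.7 ± 13.9 and H1FX at 48.9 ± 20.6 CPM per kb. H2AFJ and H2AFY2 were at 11.4 and 7.82 CPM per kb. In DMSO, H3F3B and H2AFX overlapped in their libraries, as did H2AFX and H2AFY, and H2AFJ and H2AFY2. In doxorubicin the order was H3F3B at 141 ± 11.8, H2AFY at 100 ± 4.77, H2AFZ at 87.3 ± 16.3 and H2AFV at 36.7 ± 2.26 CPM per kb. H2AFX was at 20.6 ± 1.6 CPM per kb in doxorubicin, near H1FX at 25.7 ± 2.74 and H2AFJ at 22.4 ± 16.5. H2AFY2 was at 7.66 ± 4.04 CPM per kb in doxorubicin. H2AFY and H2AFZ overlapped in doxorubicin, and so did H2AFJ with H2AFV, H1FX, H2AFX and H2AFY2. One transcript length was used per gene, which does not allow for shorter or longer forms.

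Ratios between related genes within a library do not depend on the scaling. The ratio of H2AFZ to H2AFV counts was 0.724, 1.43, 0.635, 0.826 and 0.586. The groups overlapped, because DMSO replicate 1 lay among the doxorubicin libraries, and the log2 difference was -0.59 (p = 0.3, two-sided exact permutation test). The ratio of H2AFY to H2AFY2 counts was 8.21, 19.3, 9.39, 34.8 and 9.95, higher in both libraries numbered 2 (log2 difference 0.23, exact permutation p = 0.8). The ratio of H2AFX to H2AFJ counts was 12.7, 135, 1.98, 14.8 and 1.39, higher in replicate 2 than in replicate 1 of each treatment, and the groups overlapped. Its log2 difference was -3.59 (exact permutation p = 0.3), and leaving out 1 library at a time gave -5.30 without DMSO replicate 1 to -1.88 without DMSO replicate 2. After Benjamini-Hochberg adjustment over the 3 ratios, the exact permutation p-values were 0.45 for 2 of them and 0.8 for H2AFY to H2AFY2. With 10 possible splits the smallest p was 0.1, so this test could not reach 0.05. H3F3A over H3F3B was not computed because H3F3A was at 0 in 3 libraries.

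The single 0.34 μM library lay close to the 0.2 μM libraries for most of the histone variants. In a fit of the 3 conditions, edgeR called 0 of 14745 genes between the doses (0%), and 27 genes, none of them a histone variant, had an unadjusted p under 0.05. DESeq2 also called 0 genes. For H2AFX the log2 difference of 0.34 over 0.2 μM was -0.18 (SE 0.30), for H2AFZ -0.42 (SE 0.52) and for H2AFV -0.11 (SE 0.28). The spread in this fit comes from the other pairs, since the 0.34 μM condition had no replicate.

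Other variant histone genes and the genes that make, place, exchange and read histones were taken as 6 lists. They held 85 genes, of which 72 were tested. Several act on the centromere variant CENPA or on replication-dependent histones rather than on the histone variants chosen here. Of the 72, 0 were higher and 15 were lower past the threshold with edgeR, beside the background of 1.29% and 2.73% given above. The median log2 fold change was -0.44, and 61 of the 72 were negative, beside 48.9% of all tested genes. DESeq2 called 28 lower and 1 higher, where its background was 7.72% lower and 6.37% higher. With edgeR 40 of the 72 had an unadjusted p under 0.05, and 2 of the 40 were higher. Among all tested genes, 15.2% were higher and 15.6% lower at this cutoff. The 2 higher genes were PPM1D and ZNHIT1, both named after their values were seen. PPM1D, a phosphatase that removes the H2A.X phosphate, was the one that DESeq2 called higher. PPM1D had a log2 fold change of 1.26 (SE 0.20) and an adjusted p of 0.0113 from edgeR and 1.04e-06 from DESeq2.

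Among 14 other variant histone genes, 2 were tested. CENPA, the H3 variant of the centromere, fell from 18.8 ± 6.66 to 0.615 ± 0.0384 CPM (log2 fold change -4.92, SE 0.31, adjusted p = 0.000694 from edgeR). Its counts were 369, 600, 17, 14 and 22, a larger log2 change than that of any of the 9 tested histone variants. The other tested gene was H3F3C, which had 1.11, 3.76, 3.87, 3.12 and 4 CPM and overlapping groups.

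Of 8 genes for H3.3 deposition, 1 was lower past the threshold and the list median was -0.34. It was DEK, a chromatin protein that binds H3.3, with a log2 fold change of -1.21 (SE 0.16, adjusted p = 0.00642 from edgeR). Of 17 genes for H2A.Z exchange, 1 was lower and the median was -0.36. It was ANP32E, a chaperone that takes H2A.Z out of nucleosomes, with 228, 163, 56.3, 54.7 and 46.8 CPM and a log2 fold change of -1.90 (SE 0.19, adjusted p = 0.00211 from edgeR). The ANP32E libraries separated by treatment, in the same direction as H2AFZ and H2AFV, as did those of 23.4% of all tested genes.

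Of 18 general histone chaperones, 8 were lower and the median was -1.17. HJURP, the chaperone of CENPA, fell by 4.43 on the log2 scale (adjusted p = 0.00107 from edgeR). The chromatin assembly factor 1 subunits CHAF1B and CHAF1A, which load new H3 and H4 at replication forks, fell by 2.82 (adjusted p = 0.0015 from edgeR) and 2.28 (0.00163). NASP, a carrier of free H3 and H4, fell by 1.65 (0.0027), and the other 4 were SSRP1, HAT1, RBBP7 and ASF1B.

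Of 15 tested genes for H2A.X phosphorylation and its readers, 2 were lower and the median was -0.39. MDC1, which binds phosphorylated H2A.X, fell by 1.42 (SE 0.18, adjusted p = 0.00544 from edgeR), and BAZ1B, a tyrosine kinase for H2A.X, fell by 1.02 (SE 0.14, adjusted p = 0.00642). Of 12 genes for histone transcription and 3′ end processing, 2 were lower and the median was -0.51. CASP8AP2, needed for transcription of the replication-dependent histone genes, fell by 1.34 (SE 0.15, adjusted p = 0.00329 from edgeR). SLBP, the protein that binds the stem-loop printed above, fell by 1.19 (SE 0.16, adjusted p = 0.00692). Several of these genes are themselves transcribed mainly in dividing cells, and the part of the cell cycle genes in their values was not tested.

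**Figure D5:**
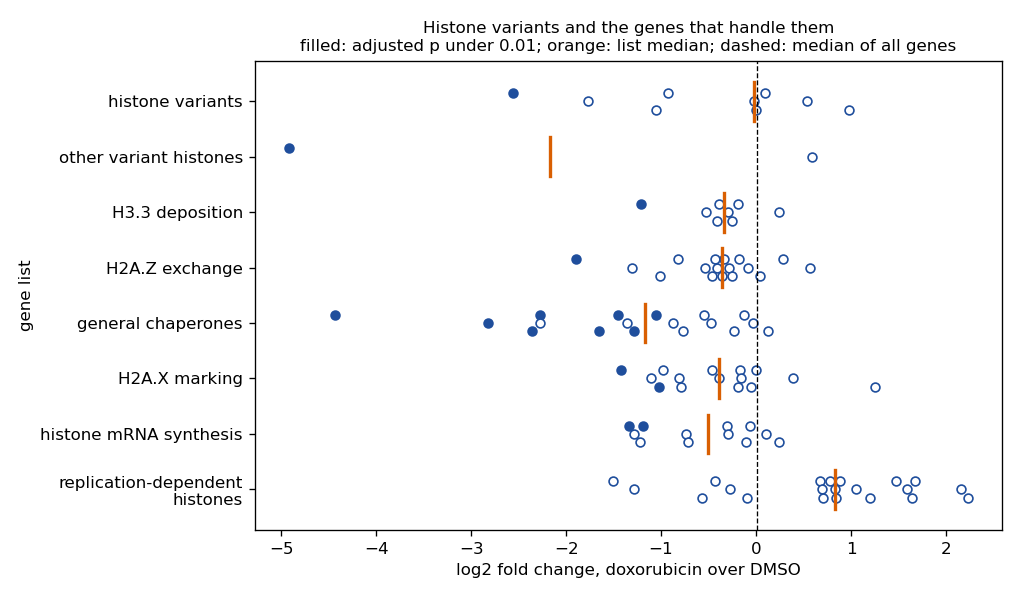
Log2 fold change of doxorubicin over DMSO for each tested gene of the histone variants, the 6 pathway lists and the replication-dependent histone genes; filled points passed an adjusted p of 0.01 in edgeR, orange bars are list medians and the dashed line is the median of all genes. All 16 filled points lie to the left of 0, and the replication-dependent histone genes have a median of 0.83 with no filled point.

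The replication-dependent histone genes, whose mRNAs mostly lack poly-A tails, were set beside the histone variants. Of 73 in the table, 21 were tested, and their median log2 fold change was 0.83. With edgeR 0 passed the threshold, while 12 had an unadjusted p under 0.05, 10 higher and 2 lower, beside the 15.2% and 15.6% of all tested genes given above. DESeq2 called 6 higher and 0 lower, beside its background of 6.37% higher and 7.72% lower. All 73 together took 41.5 and 51.9 CPM in DMSO and 78.1, 120 and 91.8 in doxorubicin, so the groups did not overlap. These are CPM of total counts, without TMM factors. Most of the counts came from the 3 genes named next, and many of the 73 were at or near 0. Poly-A selection captures the polyadenylated forms, so these values cannot be read as the level of all mRNAs of these genes. HIST1H2BK had 348, 463, 631, 740 and 1069 counts and a log2 fold change of 0.84 (SE 0.21, adjusted p = 0.0442 from edgeR). HIST1H1C had 126, 201, 337, 563 and 592 counts and a log2 fold change of 1.47 (SE 0.34, adjusted p = 0.0364). HIST2H2BE had 155, 92, 326, 459 and 501 counts and a log2 fold change of 1.67 (SE 0.32, adjusted p = 0.0188). These 3 have the highest CPM of the group, and each was higher in all doxorubicin libraries than in both DMSO libraries. That pattern was shown by 24.3% of all tested genes. H2AFX, the histone variant that shares the stem-loop with this group, fell.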

How the data were processed

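RNA was sequenced from RPE1 cells treated for 18 h with DMSO (2 libraries), 0.2 μM doxorubicin (2) or 0.34 μM doxorubicin (1). The authors deposited gene-level read counts without normalization, after mapping to hg38 with STAR and counting by featureCounts from Rsubread with the iGenomes annotation. The sources used here do not give versions, the strand setting or the handling of reads with several matches. Their second deposited table, with base mean, log2 fold change, standard error, statistic and p-values of the authors' own comparison, was not used, and 0 columns of per-sample values were left out.

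Counts were tested in R 4.3.3 with edgeR 4.0.16 (quasi-likelihood test, TMM, minimum count 10, minimum total 15), with 3 doxorubicin against 2 DMSO libraries as in the study's methods and no covariates. Benjamini-Hochberg adjustment ran over all 14187 tested genes, with a threshold of 0.01. Standard errors are the absolute log2 fold change over the square root of F. DESeq2 1.42.0, its size factors in edgeR, no filter, 0.2 μM alone, a replicate block, a threshold of 0.05 and leaving out each library were the alternatives. The code was tested on simulated data. The DMSO and the 0.2 μM pair differed by a chi-square of 117 and 75.3 per degree of freedom over genes with at least 20 counts. Within neither pair was a library a copy of the other. Other pairs of libraries were not compared in this way.

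The histone variants and the lists, compiled from general knowledge, were chosen with earlier results of these data known. Of the 10 histone variants all are named but 1, which is not reported here and stays in the counts over the group. Of each other list the genes past the threshold, at most 4 by smallest p, or otherwise the gene with the smallest p, are named. Of the replication-dependent histone genes the 3 with the highest mean CPM are named. Other genes are named after their values were seen. Positions come from RefSeq (GRCh38.p14), matched for 10 of 10 symbols. Promoter letters come from RefSeq too, for the histone variants described here. Transcript lengths and the stem-loop come from GENCODE transcripts.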

Additional observations from a re-analysis of the deposited data

How the results depend on the processing

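H2AFX kept its direction and its call in all 11 alternatives, which hold the fit without the 0.34 μM library under 2 names. The count of histone variants past the threshold, 1 as reported, was 3 with DESeq2, 3 with no filter on low counts, 3 with an adjusted p of 0.05 (1927 genes in all, or 13.6%) and 1 to 2 when 1 library was left out (2 without DMSO replicate 1). The 15 pathway genes became 29 with DESeq2, 4 with the 0.2 μM libraries alone and 2 to 8 when 1 library was left out. The 0 replication-dependent histone genes became 6 with DESeq2 and 2 with no filter. Among all genes, 571 passed as reported, 2026 with DESeq2 and 1020 with no filter. The fit of 3 conditions called 185 genes for 0.2 μM against DMSO. Leaving out 1 doxorubicin library gave 178 to 207 genes. The dose comparison called 0 genes with edgeR and with DESeq2, and 0 histone variants with the size factors of DESeq2 in edgeR. The label rep2 is shared by 1 DMSO and 1 0.2 μM library, and nothing in the labels says that it marks a shared batch. The deviations of same-numbered libraries correlated across genes with r = 0.529. With the replicate number as a block, and the 0.34 μM library left out, 3 histone variants passed (H2AFX, H2AFZ and H2AFV), 21 pathway genes, 4 replication-dependent histone genes and 1249 genes in all, against 178 genes in all and 4 pathway genes in the same libraries without the block, an alternative added after the data were seen. When 1 library was left out, the log2 ratio difference ranged from -1.08 to -0.10 for H2AFZ/H2AFV, from -5.30 to -1.88 for H2AFX/H2AFJ and from -0.38 to 0.85 for H2AFY/H2AFY2, which was -0.38 without DMSO replicate 1 and also -0.38 without 0.2 μM replicate 2. The cause of these shifts was not tested.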
